A study of Mus musculus with 8 samples.

Results

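The Serpina3 genes are a run of neighbouring, closely related serine protease inhibitor genes on mouse chromosome 12, and 7 of them are described here in cheek skin: Serpina3c, Serpina3f, Serpina3g, Serpina3i, Serpina3k, Serpina3m and Serpina3n. They are 7 of 18901 genes in the expression table and 7 of the 10 Serpina3 genes in it. They were chosen by name with the genotype comparison of these same mice in view, so the measured values that chose them are the counts and FPKM compared below, and their differences between genotypes are given as a description and supported by no test. How many passed in fits over all genes is stated, and nothing is read from it. The 3 Serpina3 genes outside the list are Serpina3a, which is close to 0, and Serpina3b and Serpina3j, which are well expressed and are given beside the members.

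Serpins are suicide inhibitors. A serpin offers a protease an exposed reactive-centre loop as bait, the protease cuts the loop, and the serpin folds shut with the protease trapped on it, so the letters of the loop set which protease is caught. The human counterpart, SERPINA3 or alpha-1-antichymotrypsin, is an acute-phase plasma protein that inhibits cathepsin G and mast cell chymase, and in the mouse the single gene has expanded into a cluster whose members differ mainly in the loop. Genes of this kind are known to be switched on by IL-6-type cytokines, interferon-gamma and glucocorticoids, in liver and in inflamed tissue.

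RNA was sequenced from whole cheek skin of 8 female mice aged 7 weeks, 4 TBX20fl/fl;K14-Cre and 4 TBX20fl/fl. All 8 mice carried the floxed Tbx20 allele, bred from C57BL/6J and C57BL/6N parents. In TBX20fl/fl;K14-Cre mice, Cre driven by the keratin 14 promoter removes exons 2 and 3 of Tbx20 in keratinocytes, while other skin cells keep the gene. Every mouse received 10 µg of B-type natriuretic peptide (BNP), an itch-inducing peptide, intradermally in the left cheek, with vehicle in the right cheek, was filmed for 30 min and was killed 5 h later. There is no vehicle or uninjected RNA sample in the comparison, so the values speak of genotype in BNP-injected skin only.

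The libraries held 16056282 to 19880654 counts each. Counts of Tbx20 were too few to check the deletion, at most 2 per knockout mouse and at most 3 per control. Keratinocyte markers were high in all mice (Krt14, a basal keratin, 1075 to 1572 FPKM). One library stood apart: TBX20fl/fl replicate 2 had a median Spearman correlation of 0.919 with the other libraries, against 0.974 to 0.990 for the remaining 7, and its long transcripts were low relative to the remaining mice (Spearman correlation of the ratio with length -0.782). The correlation was -0.354 in TBX20fl/fl replicate 3 and 0.262 to 0.624 in the other 6 mice, all 4 knockouts among them, so length and genotype are partly confounded. The members' fold changes are therefore also given without that mouse or with the length trend removed, as are list medians where these moved. Over all genes the median log2 fold change was 0.03 with TMM scaling and 0.12 on the log2(FPKM + 1) scale, so FPKM put the median gene slightly higher in the knockout.

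The cluster spans 301611 bases, chr12:104112724-104414334 in GRCm38, in the order Serpina3a, b, c, f, g, i, j, k, m and n, and only Serpina3c lies on the minus strand. Because the members are told apart by their loops, the coding stretch of each loop is printed here 5′ to 3′ on the coding strand, from the GENCODE transcripts, with the conserved hinge in lower case and the loop itself in capitals. It lies in the last exon of each of the 7 genes, exon 5 or 6.
Serpina3c, chr12:104147319-104147393, minus strand: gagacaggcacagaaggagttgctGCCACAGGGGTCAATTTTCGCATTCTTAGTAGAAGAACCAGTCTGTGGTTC
Serpina3f, chr12:104220239-104220325, plus strand: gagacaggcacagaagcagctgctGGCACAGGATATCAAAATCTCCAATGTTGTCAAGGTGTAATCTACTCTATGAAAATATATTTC
Serpina3g, chr12:104241066-104241149, plus strand: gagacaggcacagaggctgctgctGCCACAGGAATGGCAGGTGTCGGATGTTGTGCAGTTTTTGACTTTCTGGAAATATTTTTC
Serpina3i, chr12:104268474-104268557, plus strand: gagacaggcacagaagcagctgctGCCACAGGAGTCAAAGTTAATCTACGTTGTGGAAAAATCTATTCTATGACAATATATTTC
Serpina3k, chr12:104345263-104345340, plus strand: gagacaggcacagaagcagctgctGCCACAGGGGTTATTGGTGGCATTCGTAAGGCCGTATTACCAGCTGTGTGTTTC
Serpina3m, chr12:104393763-104393846, plus strand: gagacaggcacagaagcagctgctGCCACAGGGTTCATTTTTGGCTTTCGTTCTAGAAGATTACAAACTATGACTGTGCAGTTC
Serpina3n, chr12:104413442-104413525, plus strand: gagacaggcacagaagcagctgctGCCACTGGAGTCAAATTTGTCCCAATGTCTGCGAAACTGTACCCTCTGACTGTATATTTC
The 24 bases of the hinge were 83.3% to 100% identical between members over 21 pairs, and were the same in Serpina3f, Serpina3i, Serpina3k, Serpina3m and Serpina3n. The loops were only 47.6% to 71.6% identical. Over the whole coding sequence, 15 pairs were 72.6% to 90.9% identical, with Serpina3k and Serpina3m the closest. Serpina3g is left out of that last range because its annotated reading frame is short.

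This likeness bears on every count below, since the reads were 50 bases long. Cut into all stretches of 50 bases, 19.1% of the Serpina3m transcript sequence also occurred in another gene, as did 15.9% of Serpina3i, 15.5% of Serpina3g, 14.04% of Serpina3k, 10.6% of Serpina3f, 6.90% of Serpina3n and 4.25% of Serpina3c. Serpina3k and Serpina3m shared 257 stretches with each other, 12.8% of those of Serpina3k and 15.96% of those of Serpina3m, and their longest identical coding run was 154 bases. Serpina3f, Serpina3g and Serpina3i formed a second group, which also shared stretches with Serpina3h and the pseudogene Serpina3e-ps. Most of each transcript was unique, but reads from the shared stretches could have been split between neighbours, and how far this moved a level was not tested. The low members also share stretches with much higher ones. Serpina3m, at a mean of 3.33 FPKM, shared 32 stretches with Serpina3c and 18 with Serpina3n.

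**Figure D1:**
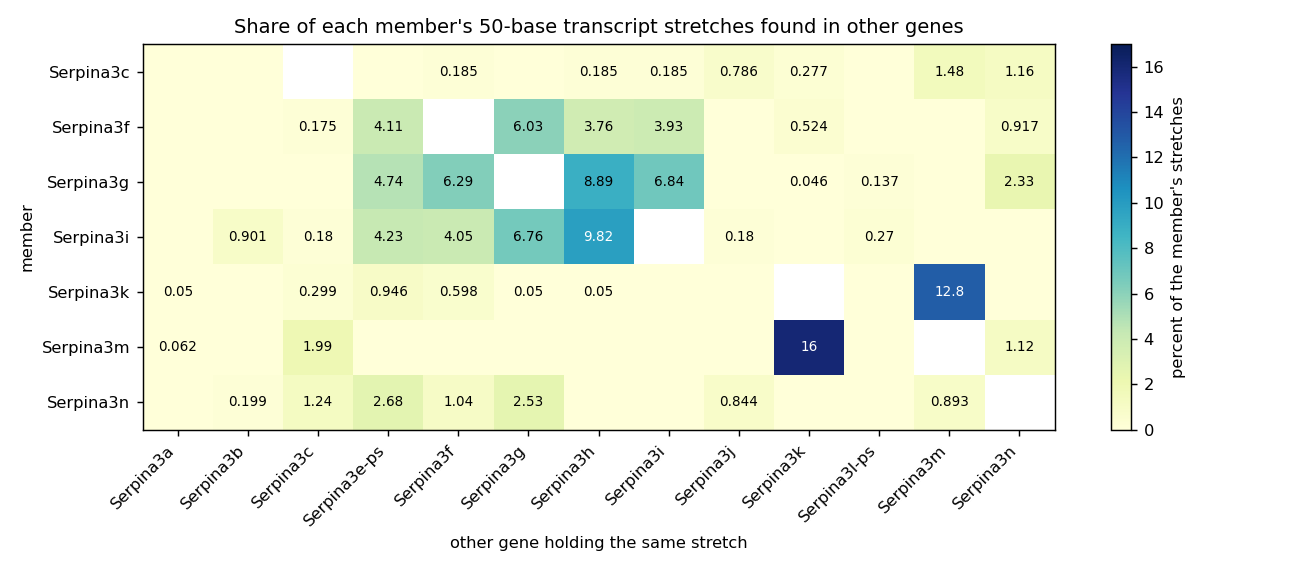
Rows are the 7 members and columns the other Serpina3 genes and pseudogenes. Colour and number give the percent of a member's 50-base transcript stretches that also occur in the other gene (blank where none, white on the diagonal). The darkest cells are the Serpina3k and Serpina3m pair, at 12.8% and 15.96%, and the block of Serpina3f, Serpina3g, Serpina3i and Serpina3h.

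Levels, compared per length in FPKM, spread widely over the cluster. Serpina3n was the highest member in all 8 mice (mean 127 FPKM, range 73.3 to 271) and held 36.9% to 76.3% of the summed FPKM of the 7. It ranked 686th of 18901 genes. Serpina3c followed (mean 45.6, range 36.1 to 63.4), then Serpina3g (mean 23.6, range 16.2 to 32.2) and Serpina3i (mean 14.5, range 10.3 to 21.8). Each of these lay above the next in all 8 mice, although the ranges of Serpina3g and Serpina3i overlapped. Serpina3m (mean 3.33), Serpina3f (mean 3.08) and Serpina3k (mean 1.96) made up the low end. Serpina3m lay above Serpina3f in 5 of 8 mice, so the order of these neighbours was not settled by the spread. Among the genes outside the list, Serpina3b was higher than any member on average (173 to 493 FPKM), Serpina3j ran from 20.6 to 330 FPKM, and Serpina3a did not exceed 0.09 FPKM.

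Serpina3n (gene ID 20716, chr12:104406646-104414334) encodes a secreted inhibitor that is known to block granzyme B. Its FPKM was 148, 76.8, 104 and 271 in TBX20fl/fl replicates 1 to 4 and 73.3, 117, 111 and 118 in TBX20fl/fl;K14-Cre replicates 1 to 4. The groups overlapped, with replicate 4 far above the other TBX20fl/fl mice and replicate 2 among the lowest of all. The mean was 150.0 ± 86.0 against 105 ± 21.2 FPKM (SD, n = 4 each). The fitted log2 fold change, TBX20fl/fl;K14-Cre over TBX20fl/fl, was -0.63 ± 0.31 (SE, edgeR), and it was -0.25 ± 0.22 without TBX20fl/fl replicate 4 and -0.78 ± 0.29 without TBX20fl/fl replicate 2.

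Serpina3c (gene ID 16625, chr12:104146907-104153929) had 53.9, 63.4, 50.2 and 43.9 FPKM in the TBX20fl/fl mice and 36.1, 37.5, 39.4 and 40.8 FPKM in the knockout mice. All 4 knockout mice lay below all 4 controls, closely together, while the controls were more spread. The mean was 52.8 ± 8.19 against 38.4 ± 2.06 FPKM and the log2 fold change was -0.67 ± 0.22. Without TBX20fl/fl replicate 2 it was -0.41 ± 0.10, and with the length trend removed it was also -0.41.

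Serpina3g (gene ID 20715, chr12:104236147-104241939), also called Spi2A, is a serpin of the cell interior that is known to inhibit cysteine cathepsins. It measured 30.6, 32.2, 31.7 and 18.8 FPKM in TBX20fl/fl mice and 22.1, 16.2, 17.4 and 19.7 FPKM in TBX20fl/fl;K14-Cre mice. Replicate 4 of the controls lay inside the knockout range, and the other 3 controls stood above it. The mean was 28.3 ± 6.39 against 18.9 ± 2.60 FPKM, with a log2 fold change of -0.78 ± 0.25, or -0.56 ± 0.20 without TBX20fl/fl replicate 2.

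Serpina3i (gene ID 628900, chr12:104263045-104271899) read 16.02, 21.8, 16.2 and 12.8 FPKM in controls and 13.3, 10.3, 10.4 and 14.8 FPKM in knockouts. Again control replicate 4 fell inside the knockout range, and replicate 2 was the highest. The means were 16.7 ± 3.75 and 12.2 ± 2.21 FPKM. The log2 fold change was -0.68 ± 0.25, but it was -0.39 ± 0.15 without TBX20fl/fl replicate 2 and -0.33 ± 0.14 with the length trend removed.

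Serpina3f (gene ID 238393, chr12:104214544-104221129) was low, at 3.91, 4.82, 4.47 and 2.29 FPKM in controls and 2.39, 2.28, 2.29 and 2.15 FPKM in knockouts. The knockout mice were nearly equal, and control replicate 4 sat among them. Counts were 90 to 179 per mouse. The means were 3.87 ± 1.12 and 2.28 ± 0.0984 FPKM and the log2 fold change was -0.98 ± 0.30, or -0.70 ± 0.23 without TBX20fl/fl replicate 2.

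Serpina3k (gene ID 20714, chr12:104338486-104345739), known as a kallikrein-binding protein, was the lowest member, at 2.90, 4.33, 2.54 and 1.39 FPKM in controls and 1.21, 0.98, 1.72 and 0.60 FPKM in knockouts. Only control replicate 4 fell below the highest knockout mouse. With 19 to 111 counts per mouse it was also the least deeply read member. The means were 2.79 ± 1.21 and 1.13 ± 0.468 FPKM, and the log2 fold change was -1.55 ± 0.47, or -1.07 ± 0.38 without TBX20fl/fl replicate 2.

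Serpina3m (gene ID 20717, chr12:104387157-104396125), its closest relative by sequence, had 4.36, 5.02, 4.01 and 5.28 FPKM in controls and 1.63, 2.72, 2.41 and 1.20 FPKM in knockouts. The groups were separate, and here control replicate 4 was the highest mouse of all in FPKM, while replicate 2 was in CPM. The counts behind these values were 37 to 82 in knockouts and 120 to 155 in controls. The means were 4.67 ± 0.585 and 1.99 ± 0.698 FPKM and the log2 fold change was -1.39 ± 0.29. It moved little with the mice used, at -1.23 without TBX20fl/fl replicate 2 and -1.39 without replicate 4, although 15.96% of its stretches are those of Serpina3k.

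**Figure D2:**
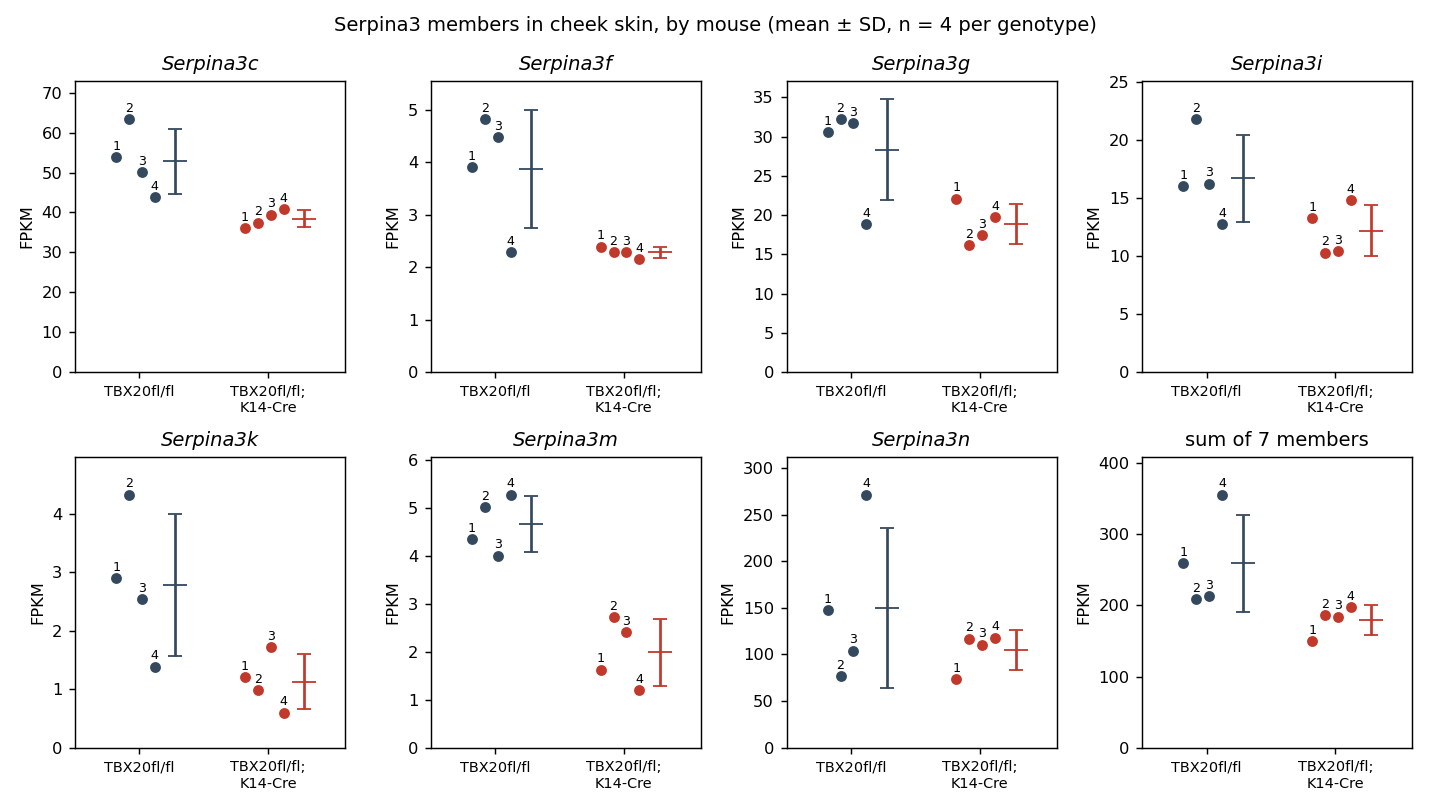
FPKM of each member and of their sum in each mouse (dots, numbered by replicate) with mean and SD beside them, TBX20fl/fl in dark grey and TBX20fl/fl;K14-Cre in red. Every axis starts at 0. Serpina3c, Serpina3m and the sum show separate groups, and TBX20fl/fl replicate 4 falls among the knockout mice for Serpina3f, Serpina3g, Serpina3i and Serpina3k but is the highest mouse for Serpina3m and Serpina3n.

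All 7 members had a fitted log2 fold change below 0, with a median of -0.78, and 47.5% of all 17124 genes tested were also below 0. In FPKM, 2 of the 7 (Serpina3c and Serpina3m) had every knockout mouse below every control, a pattern seen in 1.92% of all genes with a mean of at least 0.1 FPKM. No member had the opposite pattern, seen in 5.45% of genes. None of the 7 passed an adjusted p of 0.05 in edgeR's quasi-likelihood test, where 0.0% of genes did (smallest adjusted p 0.498, with 1431 genes at an unadjusted p under 0.05). The same held with the replicate number as a block (0.0% of genes, smallest adjusted p 0.405, 1723 genes unadjusted) and with limma on log2(FPKM + 1) (0.0%, smallest adjusted p 0.457, 1046 genes unadjusted). DESeq2's Wald test called 10 genes, 0.0609% of those with an adjusted p, and Serpina3m was 1 of them. Since the members were picked on this contrast, nothing is read from these counts.

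Summed over the 7, the FPKM was 260, 208, 213 and 356 in TBX20fl/fl mice and 150.0, 187, 184 and 197 in TBX20fl/fl;K14-Cre mice. The knockout mice all lay below the controls, a pattern seen in 1.92% of single genes. The mean was 259 ± 68.3 against 180 ± 20.5 FPKM, and the log2 fold change of the summed counts was -0.68 ± 0.19. Serpina3n gives the largest share of that sum, so it was also taken without Serpina3n (-0.76 ± 0.23) and over all 10 Serpina3 genes (-0.57 ± 0.28). Over all 10 the groups overlapped, at 506 to 705 FPKM in knockouts and 550 to 1031 FPKM in controls. In whole skin, fewer cells of a type and less RNA per cell cannot be told apart.

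**Figure D3:**
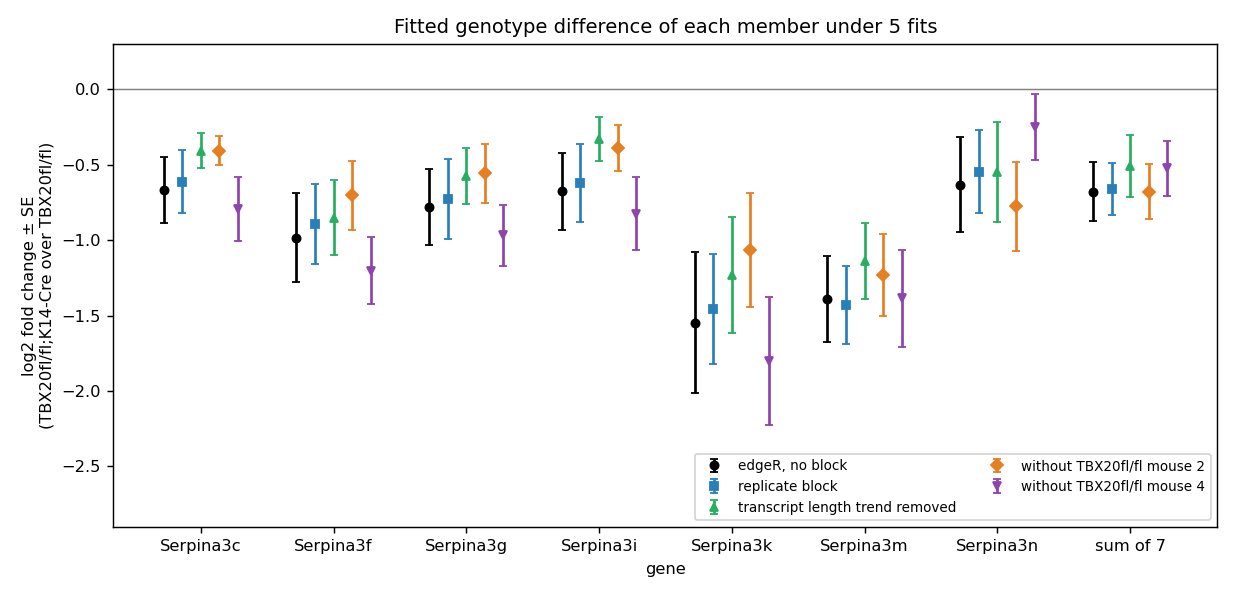
Fitted log2 fold change with SE for each member and for their sum, under 5 fits: all mice, the replicate block, the length trend removed, and without TBX20fl/fl mouse 2 or 4. All points lie below 0. Serpina3n moves from -0.63 to -0.25 without mouse 4, and Serpina3c, Serpina3f, Serpina3g, Serpina3i, Serpina3k and Serpina3m come closer to 0 without mouse 2.

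In FPKM, the spread among the control mice split the cluster. TBX20fl/fl replicate 4 was the lowest control for Serpina3c, Serpina3f, Serpina3g, Serpina3i and Serpina3k and the highest for Serpina3m and Serpina3n, in FPKM. Serpina3b and Serpina3j, the genes outside the list, sided with the first 5. In CPM, Serpina3m was highest in replicate 2 (10.2, against 7.77 in replicate 4), and of the members only Serpina3n was highest in replicate 4. Serpina3b was at 449, 493, 361 and 173 FPKM in the controls and Serpina3j at 151, 330, 109 and 20.6 FPKM, so that both were lowest in replicate 4 and highest in replicate 2. In the knockout mice Serpina3b ran from 275 to 405 FPKM and Serpina3j from 46.6 to 114 FPKM, inside the range of the controls. Their log2 fold changes were -0.33 ± 0.37 and -1.20 ± 0.72, but 0.01 ± 0.31 and -0.23 ± 0.55 without TBX20fl/fl replicate 2. Leaving out TBX20fl/fl replicate 4, 6 of 7 members had every knockout mouse below every remaining control, Serpina3n being the exception, against 4.23% of all genes. That mouse was singled out after seeing these values, and leaving out any other single mouse gave 2 or 3 members. Nothing is therefore read from the 6.

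**Figure D4:**
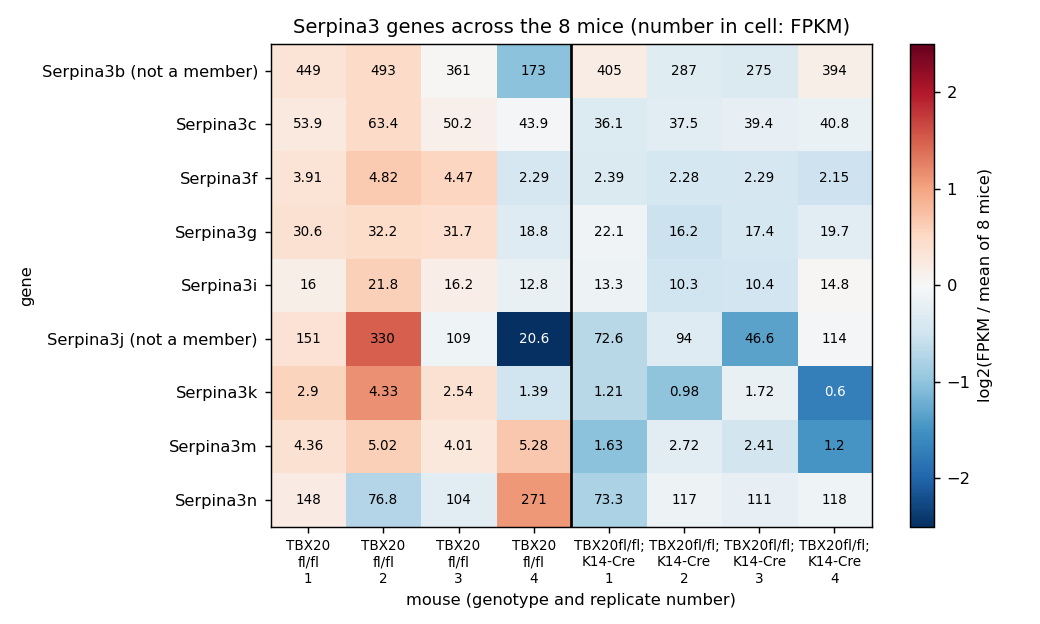
Each row is a Serpina3 gene and each column a mouse. Colour gives log2 of the FPKM over the mean of the 8 mice, and the number in each cell is the FPKM. In TBX20fl/fl replicate 4 the upper 7 rows are low for a control while Serpina3m and Serpina3n are high, and in TBX20fl/fl replicate 2 Serpina3n alone is low.

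As a description over the 8 mice on the log2(FPKM + 1) scale, the genes most like Serpina3n among 13256 non-member genes with a mean of at least 1 FPKM were Arhgap8 (Pearson r = 0.95), Lrg1 (0.94), Gsr (0.94), Rnf180 (0.92) and Csf3r (0.92). Lrg1 encodes an acute-phase glycoprotein, Gsr glutathione reductase and Csf3r the G-CSF receptor of neutrophils. Lrg1 ran from 35.0 to 47.7 FPKM in knockouts and from 34.5 to 93.9 FPKM in controls. Those most like Serpina3m were Il1a (0.94), Stard6 (0.94), Mrap (0.93), Far1 (0.93) and Insl6 (0.92). Il1a, the alarm cytokine of keratinocytes, was at 13.1 to 16.1 FPKM in knockouts and 18.9 to 26.5 FPKM in controls, without overlap, a pattern in 1.92% of all genes. All 5 genes most like Serpina3m were without overlap. They were picked for likeness to a member whose groups are separate, so nothing is read from this. All of these values come from the same 8 libraries, so they share depth and the mice that stand apart.

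The promoters were read from the RefSeq promoter table (GRCm38.p6, 250 bases before to 50 after the start), which matched 5 of the 7 members. Serpina3c and Serpina3n were 90.5% identical over the 250 bases before the start, against 69.0% for the next closest pair in the cluster. Their 120 bases in common are printed with the 5 differing bases in capitals, because the pair are the highest members but did not follow each other across the controls.
Serpina3c, chr12:104153873-104153992, minus strand: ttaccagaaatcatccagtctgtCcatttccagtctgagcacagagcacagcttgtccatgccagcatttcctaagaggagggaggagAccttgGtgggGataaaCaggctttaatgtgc
Serpina3n, chr12:104406585-104406704, plus strand: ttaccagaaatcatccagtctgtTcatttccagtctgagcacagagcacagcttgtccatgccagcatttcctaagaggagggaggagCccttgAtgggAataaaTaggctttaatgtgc
In FPKM, Serpina3n was highest in control replicate 4 and lowest in replicate 2, whereas Serpina3c was lowest in replicate 4 and highest in replicate 2. In CPM, Serpina3n was lowest in replicate 3, at 211 against 214 in replicate 2.

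A STAT-type motif, TTCNNNGAA searched on both strands, was found in the windows of Serpina3f, Serpina3g and Serpina3i and not in those of Serpina3c and Serpina3n. It was present in 8.30% of 32851 promoter windows. The matches are shown with the motif in capitals, since STAT proteins such as Stat3 carry IL-6-type signals.
Serpina3f, chr12:104214417-104214437, plus strand: ttctatTTCCTAGAAatcacc
Serpina3g, chr12:104236108-104236128, plus strand: ttatagTTCCCAGAAatcacc
Serpina3i, chr12:104263014-104263034, plus strand: tgcttgTTCCCAGAAatcacc
They lay 121, 33 and 102 bases before the start, and the Serpina3f match lay 210 bases before a second annotated start of that gene. The 6 bases after the motif were the same in the 3 genes. A T-box motif, AGGTGT, searched in the same way, was in none of the members' windows and in 13.7% of all windows. A missing match says only that these letters are not in the window.

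Granule serine proteases of neutrophils, mast cells and cytotoxic lymphocytes were read as a list of 17. It includes cathepsin G, mast cell chymase and granzyme B, and whether the members inhibit the rest was not examined. Of the 17 proteases, 16 were in the table and 15 could be tested. Their log2 fold change was below 0 for 13 (47.5% of all genes were) and above 0 for 2 (median -0.75), 7 were lower at an unadjusted p under 0.05 in edgeR (5.91% of all genes were), none was higher (2.45% of all genes) and none passed the adjusted threshold in edgeR or DESeq2. The median was -0.40 without TBX20fl/fl replicate 2 and -0.26 with the length trend removed. Cma1, mast cell chymase, was at 128, 224, 159 and 140 FPKM in controls and 110, 113, 112 and 120 FPKM in knockouts, without overlap, a pattern in 1.92% of all genes. Mcpt4, a second chymase, was higher still, at 208 ± 12.01 against 185 ± 14.1 FPKM. Gzmb, granzyme B, was at 3.36, 4.13, 3.14 and 2.29 FPKM in controls and 0.68, 1.76, 1.77 and 2.27 FPKM in knockouts, on 19 to 97 counts, and its groups lay close but did not overlap. Tpsb2, a mast cell tryptase, had 64.1 ± 6.78 against 57.0 ± 7.38 FPKM and Gzmc 14.9 ± 7.78 against 5.26 ± 1.05 FPKM, both with overlap.

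Serpins outside the cluster were placed beside the members. Of 31 tested serpins of other clades, 27 had a log2 fold change below 0 (median -0.56), 10 were lower at an unadjusted p under 0.05, none was higher and none passed the adjusted threshold in edgeR or DESeq2. Over all genes 47.5% were below 0 and 5.91% lower at that p. Without TBX20fl/fl replicate 2 the list had 25 below 0 (median -0.33) and 6 lower at that p. The groups did not overlap, as in 1.92% of all genes, for Serpinb1a, an inhibitor of neutrophil proteases (71.8 ± 19.9 against 43.9 ± 1.45 FPKM), Serpinb8 (44.7 ± 0.852 against 40.6 ± 1.76), Serpinb9 (11.5 ± 0.873 against 8.60 ± 0.582) and Serpinb10 (15.7 ± 4.92 against 8.75 ± 1.34). Those with the highest level were Serpinb6d (3477 ± 1869 against 2549 ± 818 FPKM), Serpinb6a (525 ± 154 against 363 ± 43.5), Serping1, the C1 inhibitor (244 ± 23.8 against 232 ± 49.9), and Serpinb5 (169 ± 31.9 against 128 ± 17.4). Other clade A serpins, with Serpina3b and Serpina3j among them, had a median of -0.19 over 12 genes, 8 below 0 and 4 above, and none at an unadjusted p under 0.05. Without TBX20fl/fl replicate 2 the median was 0.10, with 4 below 0 and 8 above. Apart from Serpina3b and Serpina3j only Serpina12, an adipokine serpin, was well expressed (35.7 ± 7.15 against 34.7 ± 9.01 FPKM), and Serpina9 was at 0.185 ± 0.121 against 0.965 ± 1.39 FPKM.

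Genes of the signals known to act on this family were read next. Of 15 genes of IL-6 and oncostatin M signalling, 7 were below 0 and 8 above (median 0.06), and 4 were lower at an unadjusted p under 0.05, against 47.5% and 5.91% of all genes. Without TBX20fl/fl replicate 2 the median was -0.15, with 10 below 0 and 2 lower at that p, and with the length trend removed it was -0.12, with 9 below 0 and 6 lower at that p. The 4, named after their values were seen, were the cytokines Il6 and Osm, the feedback inhibitor Socs3 and the transcription factor Cebpd. Il6 was at 7.05, 21.0, 7.39 and 3.64 FPKM in controls and 1.99, 3.24, 1.72 and 5.11 FPKM in knockouts, with overlap through control replicate 4. The receptor chain Il6st (47.4 ± 23.7 against 65.5 ± 10.9 FPKM), Jak1 (47.4 ± 14.9 against 55.8 ± 8.06), Stat3 (38.9 ± 17.1 against 43.6 ± 7.58) and Cebpb (57.2 ± 7.58 against 54.5 ± 4.47) all overlapped between the genotypes.

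In the interferon-gamma and NF-kB list 9 of 11 genes were below 0 (median -0.33). At an unadjusted p under 0.05 in edgeR 5 were lower, against 47.5% and 5.91% of all genes. Without TBX20fl/fl replicate 2 the median was -0.26, with 11 below 0 and 4 lower at that p. The 5, also named after their values were seen, were the cytokines Ifng, Tnf and Il1b, the receptor chain Ifngr2 and the interferon-induced GTPase Gbp2. Gbp2 had 145 ± 29.9 against 92.3 ± 29.5 FPKM and Il1b 114 ± 60.05 against 33.0 ± 19.9 FPKM. The groups were apart, as in 1.92% of all genes, only for Ifngr2, at 41.3 ± 1.87 against 37.0 ± 0.998 FPKM. Ifngr1, the other receptor chain, overlapped (78.4 ± 11.6 against 75.8 ± 8.90 FPKM). Of 7 genes for the glucocorticoid receptor and its targets, 4 were below 0 and 3 above (median -0.01, or 0.11 with the replicate block, -0.04 without TBX20fl/fl replicate 2 and -0.05 with the length trend removed). Tsc22d3, which encodes GILZ, was the 1 gene at an unadjusted p under 0.05 (76.0 ± 7.08 against 64.1 ± 13.1 FPKM), and 0 were without TBX20fl/fl replicate 2 or 4 or with the length trend removed. Fkbp5 was at 37.9 ± 11.9 against 44.6 ± 9.54 FPKM, Sgk1 at 37.8 ± 5.39 against 40.4 ± 3.10 and the receptor Nr3c1 at 32.8 ± 11.5 against 40.6 ± 3.62. None of the genes in these 3 lists passed the adjusted threshold in edgeR or DESeq2.

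Acute-phase plasma proteins, the class to which SERPINA3 belongs in human plasma, had a log2 fold change below 0 in 14 of 17 tested genes (median -0.46), 6 of them at an unadjusted p under 0.05 in edgeR, where 47.5% and 5.91% of all genes were, and none past edgeR's adjusted threshold. DESeq2's Wald test called 4 (Hp, Lcn2, Saa2 and Saa3). The median was -0.36 without TBX20fl/fl replicate 2. The groups did not overlap for Saa1, Saa2, Saa3, Hp and Lcn2, a pattern in 1.92% of all genes. Hp, haptoglobin, was at 606, 669, 707 and 1039 FPKM in controls and 279, 451, 354 and 404 FPKM in knockouts, and Saa3, a serum amyloid A made in inflamed tissue, at 44.0, 46.7, 24.1 and 147 FPKM and at 5.92, 18.6, 8.30 and 16.4 FPKM. Both were highest in control replicate 4, as was Serpina3n, whereas Lcn2, Saa1, Saa2 and Orm1 were highest in control replicate 2. Lcn2, a siderophore-binding lipocalin, had 39.3 ± 11.7 against 15.0 ± 2.81 FPKM. Saa1 (4.64 ± 2.77 against 0.895 ± 0.537) and Saa2 (3.93 ± 2.86 against 0.260 ± 0.192) were low. Orm1 (272 ± 111 against 177 ± 24.8) and C3 (114 ± 44.8 against 156 ± 49.7) overlapped, with C3 the higher in knockouts on average.

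**Figure D5:**
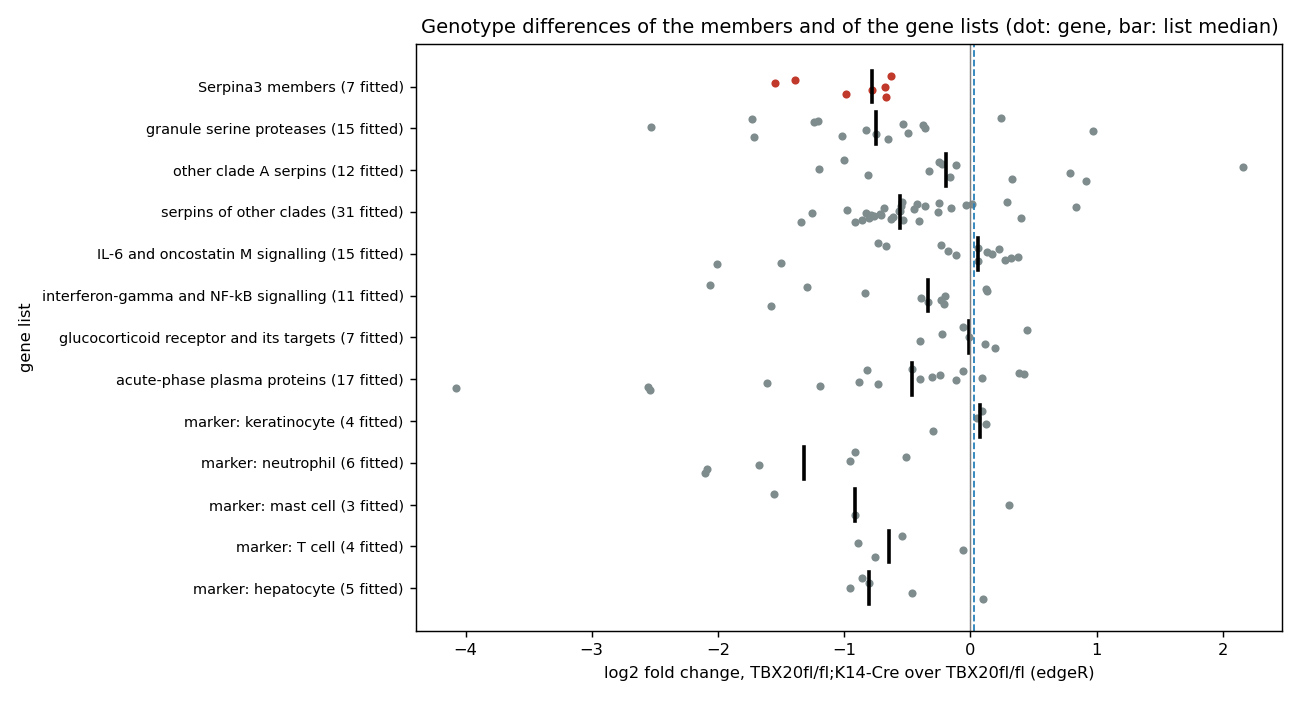
Each dot is the log2 fold change of a gene (TBX20fl/fl;K14-Cre over TBX20fl/fl, edgeR), grouped by list, and the bar is the list median. The grey line is 0 and the dashed line is the median of all genes, 0.03. The 7 members, in red, lie between -1.55 and -0.63 with a median of -0.78, beside -0.75 for the granule proteases and 0.06 for IL-6 and oncostatin M signalling.

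Markers of other cells also differed between the genotypes in part, none past the adjusted threshold in edgeR or DESeq2. All 6 neutrophil markers had a log2 fold change below 0 and 4 were lower at an unadjusted p under 0.05 in edgeR, against 47.5% and 5.91% of all genes. Without overlap were S100a9 and Ly6g, a pattern in 1.92% of all genes. The summed FPKM of the 6 markers was 106 to 291 in knockouts and 287 to 965 in controls, highest in control replicates 4 (965) and 2 (921). Their median log2 fold change was -1.32, or -1.20 without TBX20fl/fl replicate 2. Their defining gene Ly6g was at 0.12 to 0.23 FPKM in knockouts and 0.37 to 0.56 FPKM in controls, on only 2 to 9 counts per mouse. The sum is mostly S100a8 and S100a9, which were at 398 and 458 FPKM in control replicate 2. Of the 6 markers only Csf3r, already named above for its likeness to Serpina3n, had the order of Serpina3n over the controls in FPKM (17.8, 8.66, 11.9 and 24.1 FPKM in replicates 1 to 4). Mast cell markers summed to 148 to 168 FPKM in knockouts and 190 to 359 FPKM in controls, with 2 of 3 lower and without overlap (Cpa3 and Fcer1a, a pattern in 1.92% of all genes) and Kit at 3.11 ± 1.42 FPKM in controls against 4.13 ± 0.397 in knockouts. Their median was -0.92, or -0.47 without TBX20fl/fl replicate 2. T cell markers summed to 18.7 to 26.3 against 17.3 to 45.5 FPKM (median log2 fold change -0.65, or -0.28 with the length trend removed), and keratinocyte markers to 2901 to 3733 against 2545 to 3814 FPKM. Fibroblast markers summed to 2907 to 3733 FPKM in knockouts and 2829 to 4589 FPKM in controls, with 3 of 4 above 0 (median 0.56), but 2 of 4 with the length trend removed (median 0.19). Col1a1 was at 173 ± 80.6 FPKM in controls against 398 ± 185 in knockouts, and Dcn at 3033 ± 944 against 2287 ± 230. Macrophage markers summed to 137 to 235 against 99.6 to 215 FPKM, muscle markers to 3790 to 6815 against 4268 to 5697, fat cell markers to 398 to 469 against 340 to 424 (median log2 fold change 0.05, or 0.31 with the length trend removed), and endothelial markers to 34.3 to 54.5 against 21.8 to 49.6. Hepatocyte markers, looked at because liver is a main source of these serpins, summed to 5.09 to 11.2 FPKM in knockouts and 5.18 to 11.2 FPKM in controls, with 4 of the 5 below 0 on the log2 scale (median -0.80, or -0.46 without TBX20fl/fl replicate 2) and none at an unadjusted p under 0.05 in edgeR. Alb was the highest of them, and Cyp3a11 did not exceed 0.21 FPKM. The part of these cells in the Serpina3 values was not tested.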

How the data were processed

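Whole cheek skin of 4 TBX20fl/fl;K14-Cre and 4 TBX20fl/fl mice was sequenced (single-end reads of 50 bases). Before deposit, low-quality reads were removed by the authors using SOAPnuke, and HISAT was the aligner. The counting program and annotation are not given in the sources used here. The deposited columns used were, per mouse, estimated counts, of which 69.0% of the values above 0 are not whole, and FPKM, which the authors made from the counts per transcript length and depth. Here the expected counts were rounded, genes with under 10 counts over the 8 mice were left out (17124 stayed, all 7 members among them), and edgeR 4.0.16 quasi-likelihood fits with TMM scaling were made over all genes, with Benjamini-Hochberg adjustment. limma 3.58.1 was run on log2(FPKM + 1) for genes with a mean of at least 0.1 FPKM (15970), and DESeq2 1.42.0 as an alternative. The deposited FPKM gives levels and overlaps. A count of 3 is 0.151 to 0.187 CPM at these depths, which with the totals limits precision for low genes such as Serpina3k. The scripts were tested on simulated counts.

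Same-numbered mice of the 2 genotypes deviated together from their group means (Pearson correlations across genes 0.407, 0.313, 0.279 and 0.150), so the replicate numbers of the labels were treated as pairs in the block fits. Mice of different numbers ran from -0.492 to 0.390, so 1 such pair was above 3 of the 4 same-numbered pairs. The labels do not say what a number shares. The p-values measure the spread between these mice only.

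Members and gene lists were chosen with earlier results of these data known. The text names the 7 members, Tbx20, up to 4 genes of highest mean FPKM in each list plus those whose groups do not overlap, and the 5 genes most like Serpina3n and Serpina3m. Il6, Osm, Socs3, Cebpd, Ifng and Tnf fall outside that rule and were named after their values were seen. Markers are given as list sums with few names. Shared stretches and loops come from GENCODE vM21 transcripts (GRCm38) and promoters from RefSeq. Loops were found by a pattern for the serpin hinge and for the conserved residues after the loop. Alternatives were other size factors, no filter, the replicate block, the length trend removed, DESeq2, other pseudocounts and each mouse left out. The sums over other sets of Serpina3 genes and the refits of the list medians were chosen after seeing the data. The deposited columns of the authors' own comparisons were not used.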

Additional observations from a re-analysis of the deposited data

Results flagged for a closer look

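A mouse stood apart from the other 3 of its genotype in 2 of 20 groups of 4 FPKM values examined (the members, Serpina3b, Serpina3j and the sum), where chance gives about 1 in 20. Serpina3g in TBX20fl/fl replicate 4 was at 18.8 FPKM, below the 30.6 to 32.2 FPKM of the other controls. Serpina3n in TBX20fl/fl;K14-Cre replicate 1 was at 73.3 FPKM, below the 111 to 118 FPKM of the other knockouts.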

How the results depend on the processing

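Over 98 refits of single members (14 for each), 98 were below 0 and 98 moved by less than the spread between mice. The refits reused the same mice, and leaving out 1 mouse keeps the rest, so large moves were unlikely beforehand. The members were also picked on this contrast, so these counts are a description and no support. The lowest and highest values were -0.79 and -0.40 for Serpina3c, -1.20 and -0.70 for Serpina3f, -0.97 and -0.56 for Serpina3g, -0.82 and -0.33 for Serpina3i, -1.82 and -1.07 for Serpina3k, -1.55 and -1.14 for Serpina3m, and -0.78 and -0.25 for Serpina3n. The log2 fold change of the summed members was -0.69 with DESeq2 size factors, -0.66 with the replicate block, -0.51 with the length trend removed and -0.47 with both, and -0.78 to -0.53 when single mice were left out. The replicate block changed no call: 0 genes passed the adjusted threshold with it, in edgeR and in limma, as without it. DESeq2's Wald test called 10 genes where edgeR called 0, and the cause was not tested. Leaving out single mice left 0 genes past the adjusted threshold in edgeR, and 2 to 6 members without overlap in FPKM, against 2.34% to 6.08% of all genes. The 6 were reached without TBX20fl/fl replicate 4 (4.23% of all genes). Depth limits Serpina3k, Serpina3m and Serpina3f, with under 200 counts per mouse, and shared stretches, over 10% in each, limit Serpina3f, Serpina3g, Serpina3i, Serpina3k and Serpina3m.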
